A study of Sus scrofa with 8 samples.

Results

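Myostatin and the insulin-like growth factor (IGF) system were followed in the hind-limb muscle biceps femoris of domestic piglets, all female, in a model of the limb weakness of intensive care (acute quadriplegic myopathy). The genes asked for were 7: the growth inhibitor MSTN, the growth factors IGF1 and IGF2, the receptor IGF1R and the binding proteins IGFBP2, IGFBP3 and IGFBP5. They were found by the gene symbol in the annotation table of the Affymetrix porcine array. Of these genes, 6 were represented by 22 of the 23999 probe sets in the deposited table, and no value is given for IGFBP3, which is not analysed here. IGF2 had 13 probe sets, IGF1 had 3, MSTN and IGF1R had 2 each, and IGFBP2 and IGFBP5 had 1 each. A probe set is a group of short probes on the array that together report 1 transcript, and the leading probe set of a gene is the one with the highest mean level over the 8 arrays.

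All piglets were kept under isoflurane sedation with morphine and ketamine, were mechanically ventilated for 5 days and received antibiotics, fluid and glucose. The 4 control arrays came from piglets whose source label names sedation and ventilation only, while their protocol text adds an infusion of Escherichia coli endotoxin at 36 µg/kg/h for 1 h and gives a mean weight of 25.5 kg. The 4 corticosteroid arrays came from piglets given bolus doses of hydrocortisone over the 5 days. Their text gives a mean weight of 26.4 kg and makes no mention of endotoxin. The protocol text gives 4 piglets for the control group and 8 for the corticosteroid group, each with 4 arrays. The series text also describes pancuronium, which blocks neuromuscular transmission, but not the animals that were given it. The group therefore cannot be told apart from endotoxin, the blocker or a processing batch. Because the labels name no animal for an array, a p-value here covers only the spread among these arrays, which may be technical in part.

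Myostatin is a member of the TGF-beta family that muscle fibres secrete and that restrains muscle growth through activin type II receptors and SMAD proteins. IGF-I and IGF-II act in the opposite direction: they bind the IGF-I receptor, which signals through PI3K, AKT and mTOR to raise protein synthesis and to hold FoxO factors, which drive atrophy genes, out of the nucleus. IGF-binding proteins carry the IGFs and set how much of them reaches the receptor. Glucocorticoids are known to raise myostatin and to lower IGF-I in the muscle of other mammals.

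The values are log2 expression levels as the authors deposited them. The rows of the corticosteroid columns were first re-assigned to the probe IDs sorted as text with the full stops ignored, and the control columns were left as listed. This moves 8 of the 22 probe sets: all those of IGF1, IGF1R, IGFBP2 and IGFBP5, and 1 of the 2 for MSTN. The 13 IGF2 probe sets and the leading MSTN probe set stay at their row. MSTN thus has 1 probe set on each side of the re-ordering. In the corticosteroid arrays 1 to 4 the unmoved probe set read 6.87, 8.03, 7.60 and 8.29. The moved one read 6.29, 6.25, 7.13 and 6.05 as listed, and 6.32, 7.54, 7.21 and 7.87 after re-ordering. After re-ordering, both MSTN probe sets therefore placed the 4 treated arrays in the same order, with array 4 highest and array 1 lowest.

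The tissue label was checked against 14 muscle fibre markers, of which 10 were measured. Their mean log2 level lay between 12.91 and 13.30 on control arrays and between 13.17 and 13.25 on corticosteroid arrays, so as a list the fibre genes were bright on every array. Within the list, 4 of the 10 had groups that did not overlap, against 5.56% of all probe sets tested. The slow myosin MYH7 differed by -1.17 (log2, SE 0.32). The fast-fibre troponins TNNT3 and TNNC2 differed by 0.66 (SE 0.21) and 0.43 (SE 0.17), and CKM by 0.098 (SE 0.068). Each had a limma adjusted p of 0.469 or more. Of the markers of other cells, the matrix gene POSTN differed by 1.31 (SE 0.34) and the pericyte gene RGS5 by -0.71 (SE 0.25). The red blood cell gene HBB differed by -0.55 (SE 0.22). Their groups did not overlap either, with limma adjusted p-values of 0.469, 0.479 and 0.483. In their lists, 4 of 6 tested fibroblast markers had a higher mean and 2 a lower one. For smooth muscle and pericyte markers it was 1 higher and 4 lower, and for red blood cells 0 and 2. These single markers were named after their values were seen, and their part in the results that follow was not tested. Control array 2 had the lowest mean of the 10 fibre markers. Its mean of 7 measured macrophage markers was highest, at 8.56 against 6.41 to 7.02 in the other controls and 6.20 to 6.85 with corticosteroid. Its mean of 6 fibroblast markers was only just the highest, at 9.50 against 9.38 on corticosteroid array 2. Within that list its COL3A1 was the lowest of all arrays, at 6.48. Its POSTN, at 8.54, lay below every corticosteroid array. Of all 14361 probe sets tested with limma, 0 had an adjusted p under 0.05, and 1363 (9.49%) had an unadjusted p under 0.05. In whole-tissue RNA, fewer cells of a type and less RNA per cell cannot be told apart.

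On the inhibitor side, MSTN had the largest difference in means of the measured members, but the 2 groups overlapped and the difference was not significant. The leading MSTN probe set read 7.49, 5.40, 5.40 and 7.82 on control arrays 1 to 4. It read 6.87, 8.03, 7.60 and 8.29 on corticosteroid arrays 1 to 4. The controls split into a high pair (arrays 1 and 4) and a low pair (arrays 2 and 3), while the lowest treated array lay between these pairs. The mean log2 level was 6.53 ± 1.31 (SD, n = 4) in controls and 7.70 ± 0.62 (SD, n = 4) in treated arrays.

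The log2 difference for MSTN was 1.17 (SE 0.59), or 2.25-fold, with a 95% interval from -0.16 to 2.49 on the log2 scale. The limma adjusted p was 0.549, and the unadjusted limma p was 0.0773. The second MSTN probe set read 6.69, 4.75, 5.01 and 7.55 in controls and 6.32, 7.54, 7.21 and 7.87 with corticosteroid, a log2 difference of 1.23 (SE 0.61), and of 0.82 without control replicate 2. The spread was the main feature of both. The SD of the leading probe set among controls lay at the 98.8th percentile of all probe sets tested. The difference was 0.79 without control replicate 2, 0.79 without control replicate 3 and 1.60 without control replicate 4, and 0.60 without control array 2 and corticosteroid array 4.

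The low MSTN level on control arrays 2 and 3 was not a property of 1 probe set. Over the 8 arrays the 2 MSTN probe sets correlated with a Pearson r of 0.990 and a Spearman rho of 0.952, with exact permutation p-values of 9.9e-05 and 0.00114. Without control arrays 2 and 3, the pair farthest from the median, r was 0.960. Both probe sets read the same transcript in the same RNA samples, so their agreement and its p-values are not separate evidence. Means over some marker lists of other cells also stood apart on these arrays. The mean of 5 measured smooth muscle and pericyte markers (of 6 listed) was 9.77 and 9.46 on control arrays 2 and 3, against 8.62 and 8.82 on control arrays 1 and 4 and 8.83 to 9.02 with corticosteroid. Within that list ACTA2, CNN1 and PDGFRB were higher on both control arrays 2 and 3 than on every other array. TAGLN on both (9.02 and 8.76) lay below corticosteroid array 1 (9.13), and RGS5 on control array 3 (10.16) was the lowest control. On control array 3 the mean of 3 measured red blood cell markers (of 6 listed) was 8.01, against 5.57 to 6.25 on the others. Within that list ALAS2 (8.47) and AHSP (7.21, not tested) stood apart on this array. HBB did not, at 8.34 against 8.28 on control array 4. All 6 tested macrophage markers had a lower mean with corticosteroid, with 0 past the adjusted threshold in limma or at an unadjusted p under 0.05. Over all probe sets tested, 52.8% had a higher mean and 9.49% an unadjusted limma p under 0.05. The part of these cell markers in the MSTN result was not tested.

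**Figure D1:**
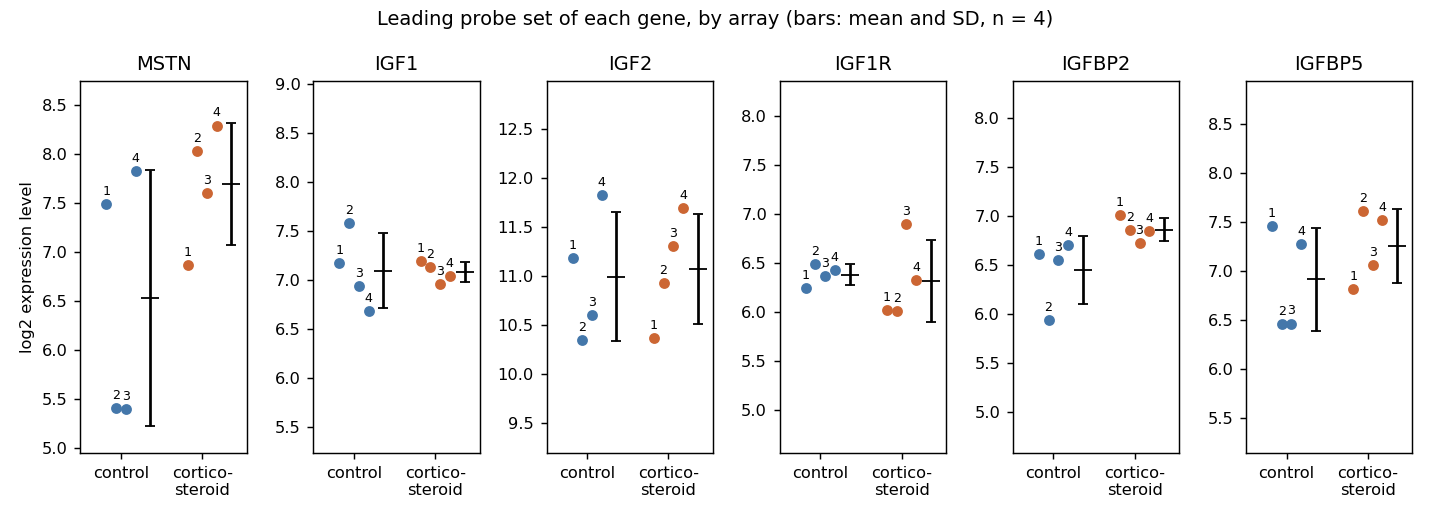
Log2 expression level (vertical axis, a span of 3.8 log2 units in every panel) of the leading probe set of each measured gene on the 4 control arrays (blue) and the 4 corticosteroid arrays (orange), with replicate numbers and, in black, the mean and SD of each group. MSTN shows the low pair of control arrays 2 and 3 at 5.40, and IGFBP2 is the only panel in which the groups do not overlap.

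On the growth factor side, IGF1 differed little between the groups. IGF1 encodes IGF-I, made by muscle as well as by the liver. Its leading probe set read 7.17, 7.58, 6.94 and 6.68 on control arrays 1 to 4 and 7.20, 7.13, 6.96 and 7.04 with corticosteroid. The treated arrays lay inside the range of the controls. The log2 difference was -0.01 (SE 0.20), with a 95% interval from -0.47 to 0.45 and a limma adjusted p of 0.990. Its sign turned under some settings, among them centring each array on its median (0.015).

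The other IGF1 probe sets did not agree on a direction. The second read 6.10 to 6.52 in controls and 6.14 to 6.43 with corticosteroid, a log2 difference of 0.035 (SE 0.15). The third and dimmest read 5.57, 6.22, 5.78 and 5.26 in controls and 5.69, 5.52, 4.99 and 5.09 with corticosteroid, a difference of -0.38 (SE 0.23, limma adjusted p = 0.594), and of -0.21 without control replicate 2. On this probe set the 2 lowest arrays were corticosteroid arrays 3 and 4, and the groups overlapped. Against the leading probe set, over the 8 arrays, the third had a Pearson r of 0.727 and the second of 0.102, given as a description.

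IGF2 encodes IGF-II, an autocrine growth factor of developing and regenerating muscle. Its leading probe set read 11.19, 10.35, 10.61 and 11.83 on control arrays 1 to 4 and 10.37, 10.93, 11.31 and 11.69 with corticosteroid. Both groups covered nearly the same range. The log2 difference was 0.081 (SE 0.36), with a 95% interval from -0.74 to 0.90 and a limma adjusted p of 0.952. It was -0.13 without control replicate 2, -0.048 without control replicate 3 and -0.13 without corticosteroid replicate 4.

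For description, the 13 IGF2 probe sets were split into 2 classes at a mean log2 level of 10. The 5 with a mean log2 level of 10 or more had differences between -0.02 and 0.15, with a median of 0.019. The 4 bright probe sets other than the leading one followed it over the 8 arrays with a Pearson r from 0.967 to 0.987. The 8 dimmer ones, at mean levels from 5.36 to 8.81, had differences between 0.20 and 0.60 with a median of 0.32, all higher with corticosteroid. Their r against the leading probe set ran from -0.50 to 0.89. The dimmest of them, at 5.36, lay close to 5.27, the level below which probe sets were not tested. Probe sets of 1 gene read the same RNA samples, so these 13 values are not separate evidence.

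Counted from the brightest, the sixth IGF2 probe set, the only one of the 13 annotated to another sequence record, had the highest level of the dimmer class. It read 8.64, 8.30, 8.70 and 8.38 in controls and 8.37, 9.17, 9.22 and 9.66 with corticosteroid. Corticosteroid arrays 2, 3 and 4 lay above all controls, and corticosteroid array 1 lay among them. The log2 difference was 0.60 (SE 0.27, limma adjusted p = 0.524), or 1.52-fold. The probe set of smallest p among all 22 was the ninth of IGF2, at a mean level of 5.89 ± 0.29 (SD, n = 4) in controls and 6.29 ± 0.07 (SD, n = 4) in treated arrays. Its difference was 0.40 (SE 0.17, limma adjusted p = 0.499). Its name carries the suffix x, which marks a probe set some of whose probes can also match other transcripts.

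**Figure D2:**
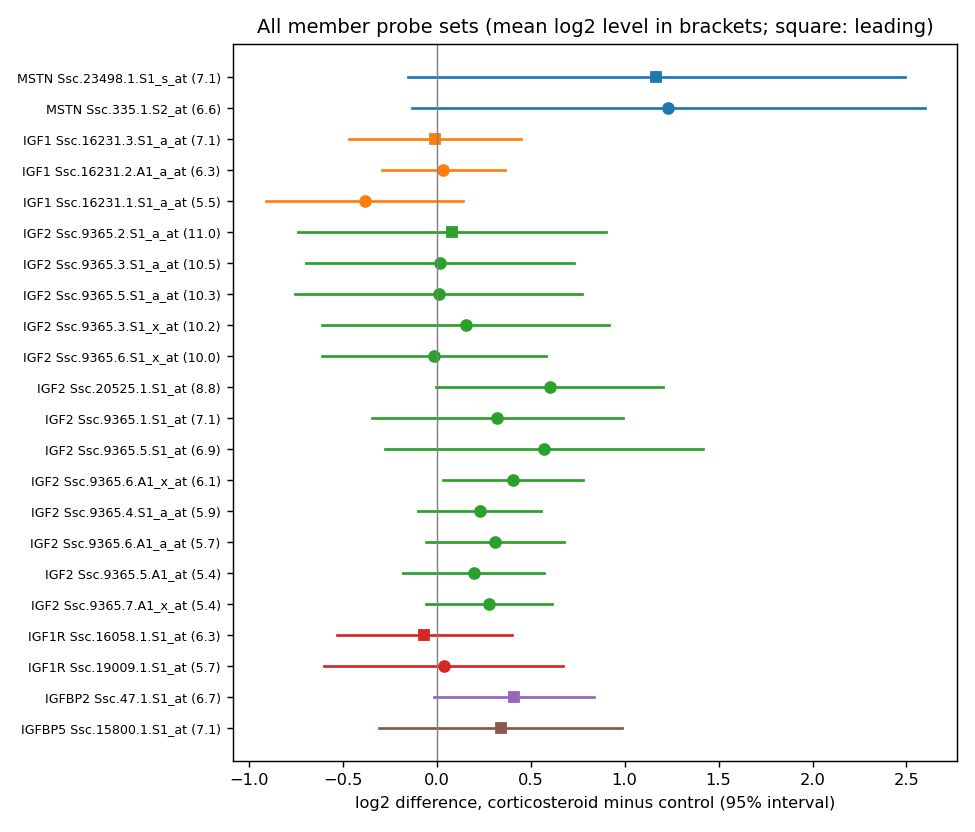
Log2 difference, corticosteroid minus control (horizontal axis), with its 95% interval from limma for each of the 22 probe sets, coloured by gene, with the mean log2 level in brackets and the leading probe set as a square. Both MSTN probe sets stand at 1.17 and 1.23 with wide intervals, and the dimmer IGF2 probe sets lie to the right of the 5 bright ones.

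The receptor gene IGF1R, a tyrosine kinase that binds both IGFs, had nearly equal group means. Its leading probe set read 6.25, 6.49, 6.37 and 6.43 in controls and 6.02, 6.02, 6.90 and 6.33 with corticosteroid. Corticosteroid array 3 was the highest of all 8 arrays, and arrays 1 and 2 were the lowest. The log2 difference was -0.07 (SE 0.21), with a limma adjusted p of 0.927. It was -0.26 without corticosteroid replicate 3. The second probe set read 5.36 to 5.78 in controls and 4.88, 5.54, 6.36 and 5.95 with corticosteroid, a difference of 0.037 (SE 0.28), with array 3 again highest.

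Of the binding proteins, IGFBP2 was the only member gene whose groups did not overlap. IGFBP-2 carries IGFs in blood and tissue fluid. Its probe set read 6.61, 5.94, 6.55 and 6.70 on control arrays 1 to 4 and 7.02, 6.86, 6.73 and 6.85 with corticosteroid. Every treated array lay above every control, by 0.026 at the closest pair. The mean was 6.45 ± 0.35 (SD, n = 4) in controls and 6.86 ± 0.12 (SD, n = 4) in treated arrays. The log2 difference of 0.41 (SE 0.19), or 1.33-fold, had a limma adjusted p of 0.530. It was 0.24 without control replicate 2, the lowest array. Over all tested probe sets, 5.56% had groups that did not overlap (3.05% higher and 2.51% lower with corticosteroid), and among the 22 of the members there was 1, a share near that background.

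IGFBP5, the binding protein gene most closely tied to muscle differentiation, read 7.46, 6.46, 6.47 and 7.28 in controls and 6.82, 7.62, 7.06 and 7.52 with corticosteroid. The controls split into the same pairs as for MSTN, with arrays 2 and 3 the lowest of all 8. The mean was 6.92 ± 0.53 (SD, n = 4) in controls and 7.26 ± 0.38 (SD, n = 4) in treated arrays, a log2 difference of 0.34 (SE 0.29, limma adjusted p = 0.686). It was 0.19 without control replicate 2, 0.19 without control replicate 3 and 0.10 without control array 2 and corticosteroid array 4. In the RefSeq gene table of the pig assembly Sscrofa11.1, IGFBP2 and IGFBP5 are next to each other.

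Set side by side, the inhibitor stood at 1.17 and the growth factors at -0.01 (IGF1) and 0.081 (IGF2) in log2 difference, with 95% intervals that overlap. The intervals contain 0 for all 6 leading probe sets. Of the 22 probe sets, 18 had a higher mean with corticosteroid and 4 a lower one, with a median log2 difference of 0.21. Over all probe sets tested 52.8% had a higher mean and the median was 0.021. Since 13 of the 22 are IGF2 probe sets, that count describes mainly 1 gene. At an unadjusted p under 0.05 there was 1 of the 22, against 9.49% of all tested, and 0 passed after adjustment.

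**Figure D3:**
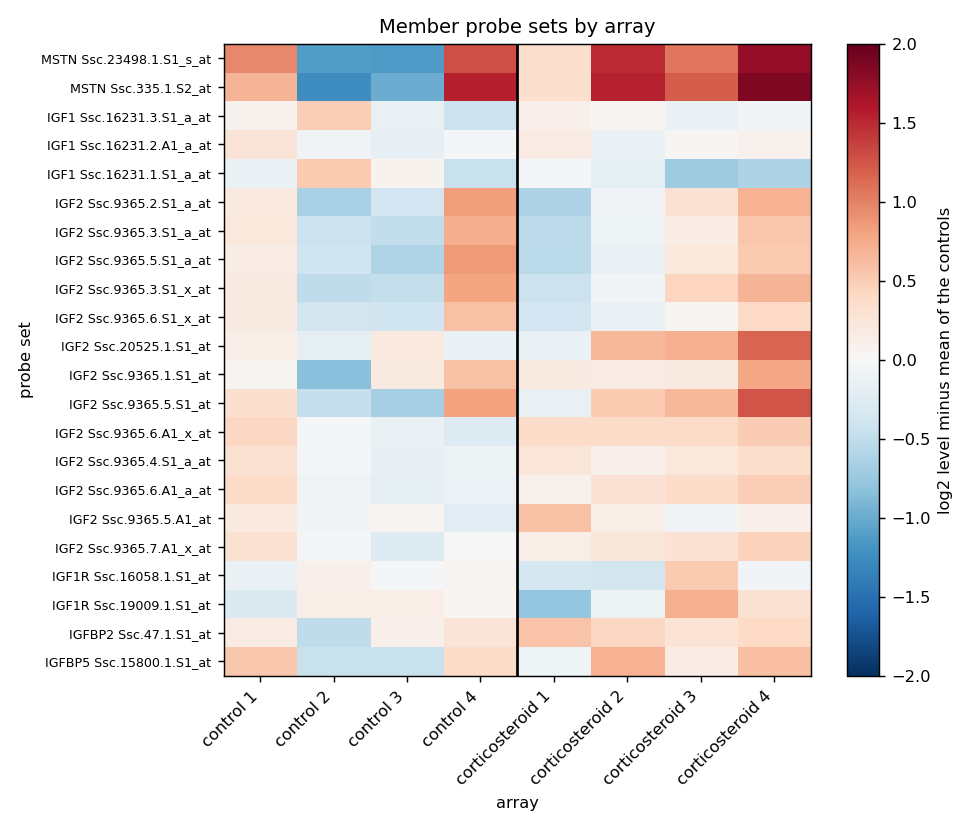
Log2 level of each of the 22 probe sets (rows) on each array (columns), shown as the difference from the mean of the 4 controls (colour, from -2 in blue to 2 in red), with a line between the groups. The MSTN, bright IGF2 and IGFBP5 rows are blue on control arrays 2 and 3 and red on control array 4 and corticosteroid array 4.

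Some members varied together from array to array. All 15 pairs of the 6 leading probe sets were compared over the 8 arrays. MSTN and IGFBP5 had a Pearson r of 0.942 (exact two-sided permutation p = 0.000942, adjusted p = 0.0141 over the 15 pairs) and a Spearman rho of 0.881 (exact permutation p = 0.00724, adjusted p = 0.109). The r was 0.945 in deviations from the group means, and 0.827 without control arrays 2 and 3, the farthest from the median of MSTN. In the rows as deposited, where the corticosteroid values of IGFBP5 are others, it was -0.39. The adjusted p was 0.0565 without control replicate 2, control replicate 3 or corticosteroid replicate 1. It was 0.125, with r at 0.904, without control array 2 and corticosteroid array 4. The 14361 probe sets share these arrays and their processing. MSTN, IGFBP5 and the mean of the smooth muscle and pericyte markers, though not each marker, stood apart on control arrays 2 and 3.

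No other pair passed after adjustment. MSTN and IGF2 had a Pearson r of 0.774 (exact permutation p = 0.0264, adjusted p = 0.18) and a Spearman rho of 0.738 (exact permutation p = 0.0458, adjusted p = 0.288), with r at 0.735 without control arrays 2 and 3. In deviations from the group means that r was 0.879. IGF1 and IGF2 had a Pearson r of -0.707 (exact permutation p = 0.0406, adjusted p = 0.18) and a Spearman rho of -0.714 (exact permutation p = 0.0576, adjusted p = 0.288). MSTN and IGFBP2 had a Pearson r of 0.688 (exact permutation p = 0.0504, adjusted p = 0.18) and a Spearman rho of 0.571 (exact permutation p = 0.151, adjusted p = 0.321), and r was -0.28 without control arrays 2 and 3. Without control arrays 2 and 4, r for IGF1 and IGF2 was -0.27. The r of MSTN and IGFBP2 thus depended on control arrays 2 and 3, and that of IGF1 and IGF2 on control arrays 2 and 4. Leaving out the arrays farthest from the median narrows the range, which by itself can lower r.

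**Figure D4:**
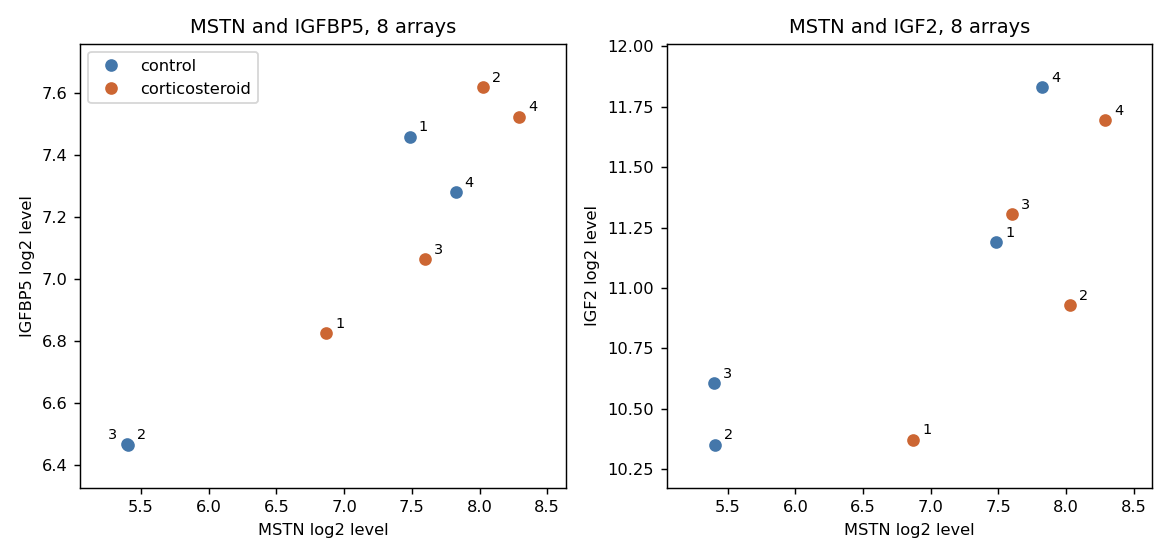
Log2 level of IGFBP5 (left) and IGF2 (right) against that of MSTN, leading probe sets, 1 point per array, labelled by replicate number, with controls in blue and corticosteroid arrays in orange. Control arrays 2 and 3 lie at the lower left of the IGFBP5 panel, at 6.46 and 6.47 for IGFBP5 and 5.40 for MSTN, and the other 6 arrays rise to the upper right (r = 0.942 over 8 arrays).

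A search of 5400 other genes gave those whose array pattern was most like each member, by Pearson r of deviations from the group means over the 8 arrays. With so many genes and 8 arrays, high values of r are common, so they are a description. For MSTN they were BUD23 (0.971), VPS11 (0.959) and TCEA3 (0.958). For IGFBP5 they were MVB12B (0.980), DTNB (0.978) and BRCC3 (0.965). For IGF2 they were POLD4 (0.982), KAT8 (0.980) and BMP4 (0.980), the last a ligand of the TGF-beta superfamily. For IGF1 they were POLA2 (0.987), RPL6 (0.983) and P2RX4 (0.981). For IGF1R they were CASD1 (0.975), JAM3 (0.959) and LOC595122 (0.935), and for IGFBP2 TNFAIP8L2 (0.978), GATC (0.976) and ATG4D (0.975).

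Among other genes of the myostatin and activin pathway, the antagonists FST and FSTL3 had higher means with corticosteroid, and no gene passed after adjustment. Of 37 listed genes other than MSTN, 19 were measured and 17 tested. Of these, 11 had a higher and 6 a lower mean, with a median log2 difference of 0.20. Over the leading probe sets of all 5406 genes tested, 54.0% had a higher mean and the median was 0.029. In the list, 3 genes were higher and 1 lower at an unadjusted limma p under 0.05, against 4.78% and 4.71% of all probe sets tested. Refitted over the 17 tested genes, the count was 0 without corticosteroid replicate 2, 1 without corticosteroid replicate 4 and 2 without control replicate 3.

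Follistatin (FST), a secreted antagonist of myostatin and activin, read 7.43, 6.89, 7.41 and 8.05 in controls and 8.02, 8.17, 7.95 and 8.15 with corticosteroid. Control array 4 lay among the treated arrays, and the other controls lay below all of them. The log2 difference was 0.63 (SE 0.24, limma adjusted p = 0.482), and 0.65 for its second probe set. Follistatin-like 3 (FSTL3), a related antagonist, read 6.50, 6.86, 6.24 and 6.43 in controls and 6.51, 7.14, 7.01 and 7.41 with corticosteroid. The groups overlapped at control array 2 and corticosteroid array 1. Its difference was 0.51 (SE 0.22, limma adjusted p = 0.524), and 0.70 for its second probe set.

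Of the receptors, ACVR1, a type I receptor of the family, read 7.85, 7.60, 7.95 and 7.82 in controls and 8.16, 8.79, 7.99 and 8.73 with corticosteroid, with no overlap. ACVR1 was the 1 of the 17 tested genes of the list without overlap, near the 5.56% of all probe sets tested. Its log2 difference was 0.61 (SE 0.22, limma adjusted p = 0.479), and 0.45 for its second probe set. ACVR2B, the type II receptor to which myostatin binds, read 6.37, 5.22, 5.26 and 5.97 in controls and 5.69, 5.96, 6.96 and 7.38 with corticosteroid, a difference of 0.79 (SE 0.41, limma adjusted p = 0.552). As for MSTN, control arrays 2 and 3 were the lowest. It was 0.50 without corticosteroid replicate 4. TGFBR3, the co-receptor betaglycan, was the lower gene at an unadjusted p under 0.05, with a log2 difference of -0.52 (SE 0.19, limma adjusted p = 0.479).

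In the extracellular part of the IGF system, 11 genes other than the members were listed, 7 measured and 6 tested, with 5 higher and 1 lower mean and a median log2 difference of 0.13. None had an unadjusted p under 0.05 in limma. Over all probe sets tested that share was 9.49%, and 6 genes are too few to tell 0 from it. IGFALS, which holds IGFs in a large complex in blood, differed by 0.14 (SE 0.13), IGFBP1 by 0.18 (SE 0.17) and the protease PAPPA, which cuts binding proteins, by 0.12 (SE 0.13). The PAPPA difference was 0.066 without corticosteroid replicate 1. For IGFBP1 it was 0.11 without control replicate 4 and 0.28 without control replicate 1. HTRA1, a secreted protease, differed by -0.50 (SE 0.47) and by 0.017 without control replicate 2. That array read 10.38 for HTRA1, against 8.17 to 8.50 in the other controls.

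Upstream of IGF1, 8 genes of growth hormone signalling were listed, 6 measured and 5 tested, with 3 higher and 2 lower means and a median log2 difference of 0.24. STAT5B, the transcription factor through which growth hormone drives IGF1, read 11.20, 10.03, 10.55 and 11.05 in controls and 11.45, 11.08, 11.13 and 11.27 with corticosteroid. Its difference was 0.52 (SE 0.25, limma adjusted p = 0.540), and 0.30 without control replicate 2. STAT5A differed by 0.50 (SE 0.40) and by 0.11 without control replicate 2. The growth hormone receptor gene GHR differed by 0.24 (SE 0.33) and by -0.11 without control replicate 2, and its kinase JAK2 by -0.31 (SE 0.20) and by -0.11 without control replicate 2. None of the 5 tested genes had an unadjusted limma p under 0.05. Over all probe sets tested that share was 9.49%, and 5 genes are too few to tell 0 from it.

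Downstream of the receptor, 38 genes of PI3K, AKT and mTOR signalling other than IGF1R were listed, 17 measured and 15 tested. They gave 8 higher and 7 lower means and a median log2 difference of 0.014. The adaptor GRB2, which links receptors to Ras, read 8.93, 9.95, 9.04 and 8.83 in controls and 8.71, 8.37, 8.45 and 8.27 with corticosteroid, with no overlap. GRB2 was the 1 of the 15 tested genes of the list without overlap, near the 5.56% of all probe sets tested. Its difference was -0.74 (SE 0.26, limma adjusted p = 0.479), and -0.48 without control replicate 2. Its second tested probe set differed by -0.58. EIF4E, the cap-binding protein that mTOR frees for translation, read 6.99, 7.64, 8.73 and 7.93 in controls and 7.61, 6.89, 6.24 and 6.27 with corticosteroid, a difference of -1.07 (SE 0.41, limma adjusted p = 0.482).

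GRB10, an adaptor that dampens insulin and IGF receptors, read 10.71, 9.82, 10.02 and 11.02 in controls and 10.78, 11.09, 10.98 and 11.04 with corticosteroid. Control arrays 2 and 3 were again the lowest, and control array 4 lay among the treated arrays. Its log2 difference was 0.58 (SE 0.26, limma adjusted p = 0.524), with 0.55 for its second probe set, and 0.39 without control replicate 2. DDIT4L, an inhibitor of mTOR signalling, differed by -0.37 (SE 0.23) and by -0.20 without corticosteroid replicate 2. GRB2 and EIF4E, both lower, were the 2 of the 15 tested genes of this list at an unadjusted p under 0.05, against 9.49% of all probe sets tested and 4.71% for lower ones. Leaving out 1 array gave 1 to 3.

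Of 15 FoxO factors and targets, 11 were measured and tested, with 6 higher and 5 lower means, a median log2 difference of 0.013 and 1 gene at an unadjusted p under 0.05. Over all probe sets tested that share was 9.49%, so 1 of 11 is near the background, and leaving out 1 array gave 0 to 3. That gene was CDKN1B, an inhibitor of cell division, at 0.84 (SE 0.34, limma adjusted p = 0.499) and at 0.50 without corticosteroid replicate 3. The atrophy ubiquitin ligase FBXO32 read 12.64, 11.68, 10.76 and 12.87 in controls and 12.90, 12.46, 13.19 and 10.37 with corticosteroid. Corticosteroid array 4, the array with the highest MSTN, had the lowest FBXO32 of all 8. It was also the lowest for PDK4 (7.27), GADD45A (9.38), FOXO1 (8.60), GABARAPL1 (8.02) and FOXO3 (6.15), though not for the other tested genes of the list. Without this array, 8 of the 11 genes had a higher mean and 3 an unadjusted limma p under 0.05. PDK4 had the largest difference of the list, at -1.03 (SE 1.06), but its lower mean came from corticosteroid array 4. Its corticosteroid arrays 1 to 3 read 12.09 to 12.59, inside the range of its controls (11.30 to 13.11). The FBXO32 difference was 0.24 (SE 0.64), 0.86 without corticosteroid replicate 4 and -0.16 without control replicate 3. The glucocorticoid-induced factor KLF15 differed by 0.93 (SE 0.52, limma adjusted p = 0.572), FOXO3 by 0.31 (SE 0.27) and the cell cycle inhibitor CDKN1A by -0.32 (SE 0.25). Without corticosteroid replicate 4 the FOXO3 difference was 0.59, without corticosteroid replicate 3 it was 0.18. For CDKN1A, leaving out control replicate 4 gave -0.14 and leaving out corticosteroid replicate 3 gave -0.15.

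Of 24 other growth and wasting signals listed, 13 were measured and 5 tested, with 4 higher means, 1 lower and a median log2 difference of 0.079. At an unadjusted p under 0.05 there was 1, against 9.49% of all probe sets tested, and 0 without control replicate 2, control replicate 3, corticosteroid replicate 3 or corticosteroid replicate 4. That gene, BMP4, a ligand of the TGF-beta superfamily, read 7.36, 6.29, 6.68 and 7.84 in controls and 7.38, 7.82, 8.40 and 8.47 with corticosteroid. Its difference was 0.97 (SE 0.37, limma adjusted p = 0.482), and control arrays 2 and 3 were the lowest. The glucocorticoid receptor gene NR3C1 differed by -0.18 (SE 0.23) and by -0.37 without corticosteroid replicate 3. The angiogenic factor VEGFA differed by 0.21 (SE 0.28) and by -0.07 without control replicate 2, and the thyroid hormone receptor THRA by 0.079 (SE 0.25) and by -0.08 without control replicate 2. Other tested probe sets of both pointed the other way, at -0.67 and -0.69 for VEGFA and -0.036 for THRA.

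**Figure D5:**
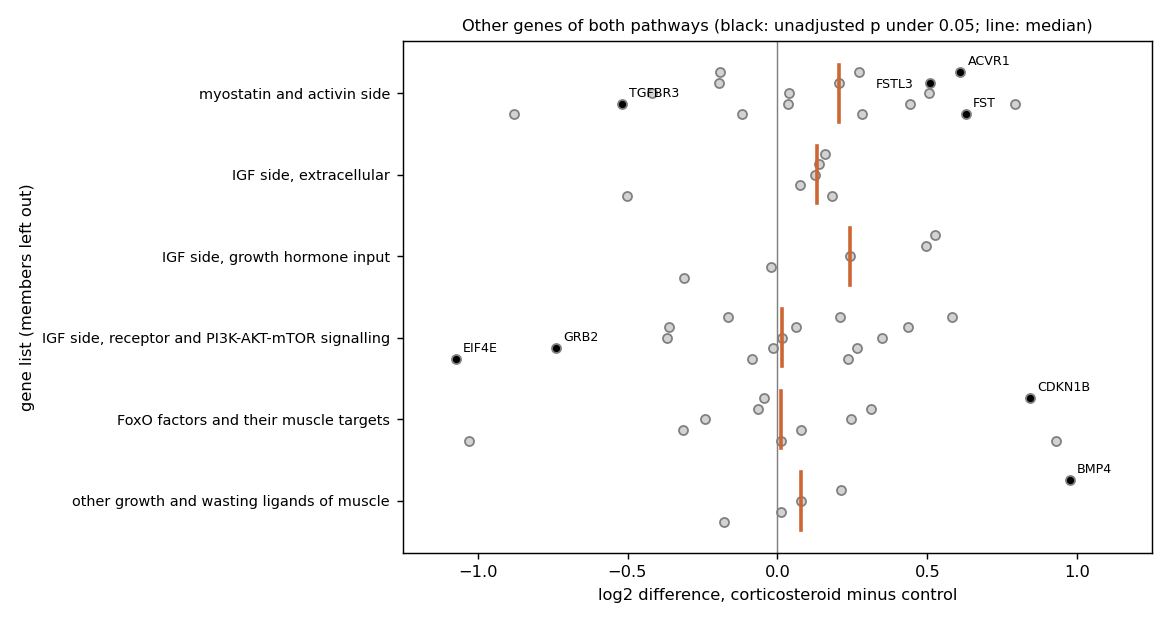
Log2 difference, corticosteroid minus control (horizontal axis), of the leading probe set of each tested gene in the 6 lists of related genes (rows), with the members left out. Black points have an unadjusted limma p under 0.05 and are named, grey points do not, and the orange line is the median of the list; FST, FSTL3 and ACVR1 lie between 0.51 and 0.63, and EIF4E and GRB2 at -1.07 and -0.74.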

How the data were processed

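Muscle RNA from 8 samples was hybridised to 1 Affymetrix porcine array each. The authors deposited 1 log2 expression value per probe set and array; the submitters' processing notes name MAS5, and the scaling between arrays and the genome build are not given in the sources used here. Groups were taken from the sample titles. Corticosteroid rows were re-assigned as the report describes, a step that moves 39.1% of all probe sets and was found from the values in earlier work on these data. Across probe sets in moved rows the group means correlated with r = 0.0997 as listed and 0.989 re-ordered. Array medians ran from 5.86 to 5.97, and no further scaling was applied.

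The 64 reporter probe sets were left out, and the 14361 with a mean log2 level above the 40th percentile (5.27) were fitted with limma 3.58.1 in R 4.3.3 (lmFit, eBayes with intensity trend), with Benjamini-Hochberg adjustment over all of them and a threshold of 0.05. All 22 member probe sets passed this filter. Exact permutation tests of correlations used Python 3.11.15 and numpy 2.4.6. The fit was tested on simulated data. The number of arrays limits the precision: the median SE of a difference was 0.22.

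Names came from the platform's annotation (10069 probe sets with 1 symbol, 198 with several, 13732 with none). Members, the 6 lists of related genes and the 9 lists of cell markers were chosen with earlier results of these data known. Genes named by rule were the members, up to 4 per list by smallest p, the 3 most alike in pattern per member, and FBXO32, TRIM63, FST, ACVR2B and NR3C1. TRIM63 is not analysed here. Single cell markers and further genes of the FoxO list were named after their values were seen. Alternatives were other row orders, normalizations, filters, variance models, a replicate block and left-out arrays. Those for the correlations were added after the data were seen.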

Additional observations from a re-analysis of the deposited data

Results flagged for a closer look

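In 96 groups of 4 arrays, 6 held an array far from the other 3 by Dixon's criterion, and chance flags about 1 group in 20. The groups were those of the members' probe sets and of the list genes named by rule. The seventh IGF2 probe set, counted from the brightest, read 7.73 on corticosteroid array 4 and 7.12 to 7.13 on the other treated arrays. The same array was highest for IGFALS (6.48 against 6.32 to 6.33) and lowest for FOXO3 (6.15 against 7.19 to 7.36) and KLF15 (7.93 against 9.43 to 9.61). HTRA1 read 10.38 on control array 2 against 8.17 to 8.50, and NR3C1 read 8.65 on corticosteroid array 3 against 7.81 to 7.94.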

How the results depend on the processing

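No member passed the adjusted threshold in any setting with re-ordered rows. With re-ordered rows MSTN, IGFBP2 and IGFBP5 kept a positive difference in every setting fitted; none of the moved probe sets has a value in the fit to unmoved rows only. With the rows as deposited, limma called 5454 probe sets (6101 at an unadjusted p under 0.05), the 3 IGF1 probe sets stood at -2.96, 0.82 and 0.59 and IGFBP2 at 0.88, all past the threshold, and 5, 1, 1, 8, 2 and 3 genes were called in the 6 lists in the order of the report. IGFBP5 read 3.77 to 3.84 and the leading IGF1R probe set 3.77 to 4.14 with corticosteroid there, below every control, and both were under the filter. With those rows FOXO3 stood at -0.20, IGFALS at -0.26, JAK2 at 0.75, STAT5B at -0.10 and VEGFA at -4.27, and r of MSTN with IGFBP5 at -0.39.

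The count at an unadjusted p under 0.05 was 828 among unmoved rows and 2160 with no filter, both over other numbers of probe sets. Leaving out 1 array gave 892 to 1783 such probe sets and 0 to 1 called; the 1 was AKR1CL1 without control replicate 3. With array weights IGF1 was 0.11, IGF2 -0.16, the second, the third and the fourth IGF2 probe sets by level -0.16, -0.18 and -0.063, and the second IGF1R probe set -0.0089. Centring on the median gave 0.015 for IGF1 and 0.011 for the fifth of IGF2, and quantile normalization -0.0026 for the third of IGF2. Averaging probe sets gave -0.25 for VEGFA. Without control array 2 and corticosteroid array 4, IGF1 was 0.17, IGF2 -0.34, the second IGF1 probe set -0.0030, the second of IGF2 -0.30, the third of IGF2 -0.29, the fourth of IGF2 -0.19, the seventh of IGF2 -0.11, the second IGF1R probe set -0.013, GHR -0.047, THRA -0.14 and VEGFA -0.11. The cause of these turns was not tested.

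Leaving out 1 array moved the leading probe sets from -0.15 to 0.15 for IGF1, from -0.13 to 0.36 for IGF2 and from -0.26 to 0.035 for IGF1R. It moved the second IGF1 probe set from -0.019 to 0.12, the second of IGF1R from -0.19 to 0.30, the second of IGF2 from -0.16 to 0.26, the third of IGF2 from -0.19 to 0.29, the fourth of IGF2 from -0.020 to 0.42 and the fifth of IGF2 from -0.15 to 0.18. The ranges were -0.16 to 0.86 for FBXO32, -0.11 to 0.45 for GHR, -0.72 to 0.017 for HTRA1, -0.079 to 0.29 for THRA and -0.072 to 0.38 for VEGFA. The replicate block left the MSTN difference at 1.17 (limma adjusted p = 0.552), called 0 probe sets and changed no other call. Deviations of same-numbered arrays correlated at -0.25, 0.11, 0.10 and 0.053, so the numbers were not taken to pair animals.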
